A study of Mus musculus with 10 samples.

Results

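The genes described here are 9 regulators of cellular energy use: the PGC1 coactivators Ppargc1a and Ppargc1b, the PPAR receptors Ppara, Ppard and Pparg, and the mTOR genes Deptor, Mtor, Rptor and Rictor. Members were chosen by name, with earlier results of these data known. Every peak that touched the gene body or 10 kb on either side was taken, with gene positions from GENCODE M21 on mm10. This gave 62 of the 123652 wild type peaks and 1 of the 1931 AHR KO peaks. The 62 peaks lay at 8 of the 9 genes, and Rictor had none.

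The peaks come from ChIP-seq with an antibody to AHR, the aryl hydrocarbon receptor. AHR waits in the cytoplasm and enters the nucleus to bind DNA when a ligand such as FICZ reaches it. Mouse colon organoids, self-organising cultures of the colon epithelium, were kept in WENR medium (Wnt3a-supplemented, labelled a stem cell condition) and given 5 nM FICZ for 1 hour. Wild type organoids gave 4 AHR ChIP and 4 input libraries, M1 to M4, and AHR KO organoids gave 1 ChIP and 1 input library. The study's methods give 4 biological replicates for wild type and AHR KO organoids alike. By its label the AHR KO ChIP was 1 library, and it was treated as 1 sample. All groups shared the medium and the ligand, and no group without FICZ was analysed here. In the mice used by the study, Ahr was deleted by Villin-Cre, which acts in the intestinal epithelium, on floxed alleles, and wild type littermates on the same C57BL/6 background served as controls. The age of the animals is not given in the labels. Wild type cultures were combined in a single peak list, so no value per culture stands behind any number below, and nothing here has a replicate check. The lists hold no expression values, so the organoid label could not be checked against markers.

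PPARs are nuclear receptors for fatty acids and their derivatives. They bind DNA as partners of the RXR receptors and switch on genes of lipid uptake and oxidation. PGC1 proteins do not bind DNA themselves and are recruited by PPARs and related receptors to drive mitochondrial biogenesis. The mTOR kinase works in separate complexes, defined by Rptor or Rictor, that couple nutrients and growth signals to protein synthesis and survival, and Deptor inhibits the kinase. AHR with its partner ARNT recognises TNGCGTG, where N is any base, and its core GCGTG.

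Most peaks at these genes lay in repeat sequence, as did most of the wild type list (shares below). Sequences that follow are the reference strand of GRCm38, 5′ to 3′. The highest-scoring peak at Rptor (chr11:119847240-119847484), and those at Pparg (chr6:115381342-115381630) and Ppara (the central 200 bp, chr15:85745557-85745756), are shown because each is built around a run of CA or TG, in capitals where at least 6 bases long.
Rptor, intron 16: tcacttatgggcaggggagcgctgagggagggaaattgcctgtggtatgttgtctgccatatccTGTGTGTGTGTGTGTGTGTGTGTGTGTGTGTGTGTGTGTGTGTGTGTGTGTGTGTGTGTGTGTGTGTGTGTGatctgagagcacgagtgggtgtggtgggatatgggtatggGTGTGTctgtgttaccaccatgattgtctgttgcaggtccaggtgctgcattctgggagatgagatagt
Pparg, intron 1: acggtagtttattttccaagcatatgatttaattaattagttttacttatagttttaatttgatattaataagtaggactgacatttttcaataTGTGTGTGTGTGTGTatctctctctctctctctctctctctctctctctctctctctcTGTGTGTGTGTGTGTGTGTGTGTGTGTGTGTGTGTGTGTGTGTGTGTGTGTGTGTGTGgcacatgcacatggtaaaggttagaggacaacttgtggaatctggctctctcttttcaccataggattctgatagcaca
Ppara, intron 2: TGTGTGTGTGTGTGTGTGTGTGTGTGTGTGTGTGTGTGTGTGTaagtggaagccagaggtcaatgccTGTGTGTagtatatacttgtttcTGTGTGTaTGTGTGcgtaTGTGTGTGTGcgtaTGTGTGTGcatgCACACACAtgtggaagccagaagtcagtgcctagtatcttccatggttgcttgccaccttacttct

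The highest peak at Ppard (chr17:28281243-28281467) is shown because the AHR core stands a few bases beyond its TG run, after a stretch of alternating CG. Capitals mark GCGTG, here read on the other strand.
Ppard, intron 2: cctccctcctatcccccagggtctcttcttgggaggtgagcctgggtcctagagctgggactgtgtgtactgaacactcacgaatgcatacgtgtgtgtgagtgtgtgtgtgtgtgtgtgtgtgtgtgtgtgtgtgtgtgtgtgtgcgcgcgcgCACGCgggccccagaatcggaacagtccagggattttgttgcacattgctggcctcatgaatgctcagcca

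Peaks without a CA run often shared sequence with each other. Both fully masked peaks of Ppargc1a are shown by their central 200 bp (chr5:51481712-51481911 and chr5:51524260-51524459). A peak 5.5 kb upstream of Mtor (chr4:148443050-148443230) and one in Deptor intron 1 (chr15:55127510-55127758) are shown whole. In each pair, capitals mark bases that lie in 20-base words common to both peaks on either strand.
Ppargc1a, intron 7: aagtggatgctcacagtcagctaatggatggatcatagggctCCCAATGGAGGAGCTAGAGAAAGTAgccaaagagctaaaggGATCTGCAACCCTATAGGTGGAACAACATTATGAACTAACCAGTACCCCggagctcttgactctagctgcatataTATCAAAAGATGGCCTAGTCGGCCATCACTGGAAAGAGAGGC
Ppargc1a, intron 2: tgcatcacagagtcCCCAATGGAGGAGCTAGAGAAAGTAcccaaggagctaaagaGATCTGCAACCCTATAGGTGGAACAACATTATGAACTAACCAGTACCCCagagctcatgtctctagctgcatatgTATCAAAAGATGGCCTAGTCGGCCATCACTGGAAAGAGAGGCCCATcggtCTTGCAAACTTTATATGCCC
Mtor, 5.5 kb upstream: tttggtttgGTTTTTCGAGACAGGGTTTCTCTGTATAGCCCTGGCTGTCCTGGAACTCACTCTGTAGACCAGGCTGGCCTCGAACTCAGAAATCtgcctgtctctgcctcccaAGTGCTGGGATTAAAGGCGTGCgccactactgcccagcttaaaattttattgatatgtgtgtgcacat
Deptor, intron 1: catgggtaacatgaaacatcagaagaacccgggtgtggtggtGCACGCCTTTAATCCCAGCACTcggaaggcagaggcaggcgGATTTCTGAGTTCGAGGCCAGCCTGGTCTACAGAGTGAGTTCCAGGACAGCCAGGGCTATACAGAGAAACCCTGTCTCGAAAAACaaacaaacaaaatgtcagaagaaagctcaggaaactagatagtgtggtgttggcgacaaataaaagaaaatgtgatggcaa

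The remaining sequences are the only window with little repeat masking (chr4:148439744-148439943, unmasked bases in capitals) and a peak beyond the 10 kb limit at Pparg (central 200 bp, chr6:115503826-115504025, TNGCGTG on the other strand in capitals).
Mtor, 8.8 kb upstream: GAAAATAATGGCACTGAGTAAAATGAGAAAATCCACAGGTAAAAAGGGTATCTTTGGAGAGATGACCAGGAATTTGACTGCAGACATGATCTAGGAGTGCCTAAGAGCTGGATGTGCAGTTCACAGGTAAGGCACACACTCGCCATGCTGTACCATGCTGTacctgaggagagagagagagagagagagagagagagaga
Pparg, downstream: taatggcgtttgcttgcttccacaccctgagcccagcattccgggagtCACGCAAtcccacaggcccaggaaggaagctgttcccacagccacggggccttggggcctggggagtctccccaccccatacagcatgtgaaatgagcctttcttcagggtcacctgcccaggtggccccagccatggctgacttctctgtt

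Having a wild type peak did not set these genes apart. A peak was present at 8 of 9 genes, and 78.3% of the 21938 protein-coding genes had at least 1 by the same rule. An AHR KO peak was present at 1 of 9, against 4.47% of protein-coding genes. Over their summed intervals the 9 genes held 4.75 wild type peaks per 100 kb, protein-coding intervals held 4.53 and the assembled genome 4.66. By role, the density per 100 kb was 7.82 at the PGC1 coactivators (20 peaks), 4.60 at the PPAR receptors (15 peaks) and 3.73 at the mTOR genes (27 peaks).

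Ppargc1b and Rictor were at the ends of this range. Ppargc1b, with 12 peaks in 122.3 kb, had 9.81 per 100 kb, a higher density than 91.2% of protein-coding genes. Rictor had 0 peaks in 112.0 kb. Among genes with an interval within 10% of its own, 19 of 760 (2.5%) had none, and among the 2740 genes with an interval at least as long, 98.7% had a peak. Rptor, the longest at 316.7 kb, had 8 peaks where genes of like length had a median of 14 (quartiles 10 and 17).

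**Figure D1:**
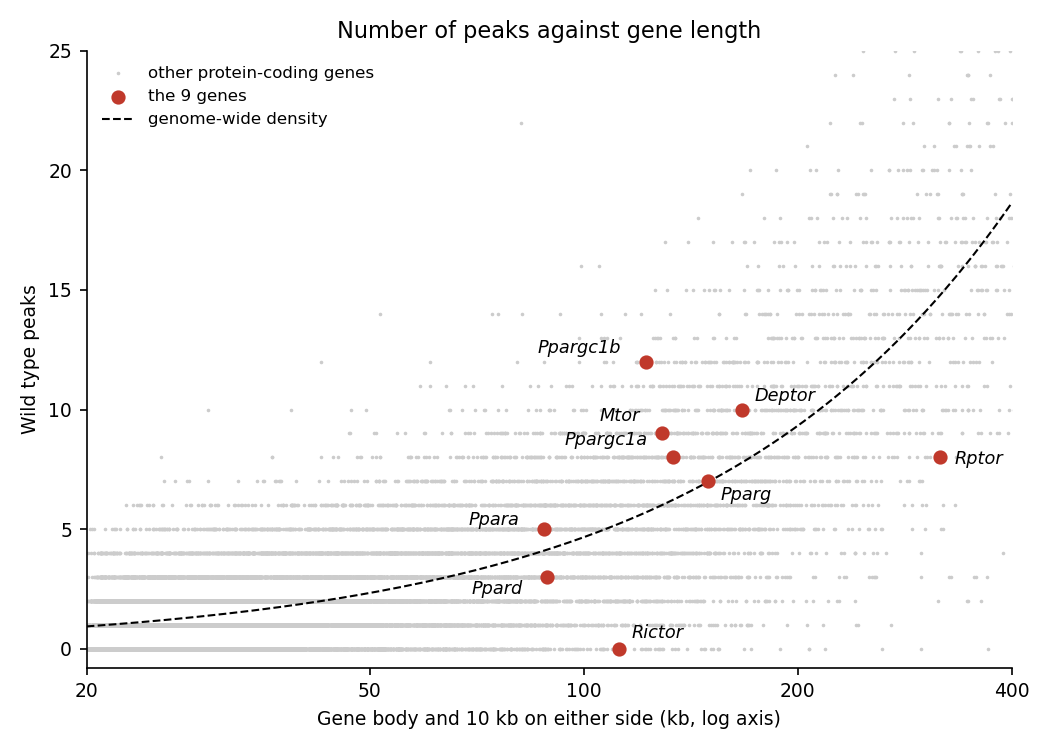
Wild type peaks (y axis) against the length of the gene with 10 kb on either side (x axis, kb, log scale) for the 9 genes (red, named) and the other protein-coding genes (grey), with the genome-wide density of 4.66 per 100 kb as a dashed line. Ppargc1b with 12 peaks lies well above the line, Rptor with 8 and Rictor with 0 well below it. Genes with longer intervals or more peaks than the axes show lie outside the plot.

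Scores followed the list as a whole. The score is the authors' fold enrichment of ChIP pileup over background, and it depends on depth. Its median was 5.32 over the 62 peaks (quartiles 4.66 and 6.41) and 5.32 over all wild type peaks (quartiles 4.53 and 5.98). The lowest was 2.87 and the highest 8.31, while the list reached 60.4. Of the 62, 5 (8.06%, 95% Wilson interval 3.49 to 17.5) were in the top 10% of scores, at or above 7.14. Where the score allowed the number of fragments under the peak to be read (34 of 62 peaks), it was 11 to 24 with a median of 16, a depth at which counting error is wide: 24 fragments have an exact 95% Poisson interval of 15.4 to 35.7.

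**Figure D2:**
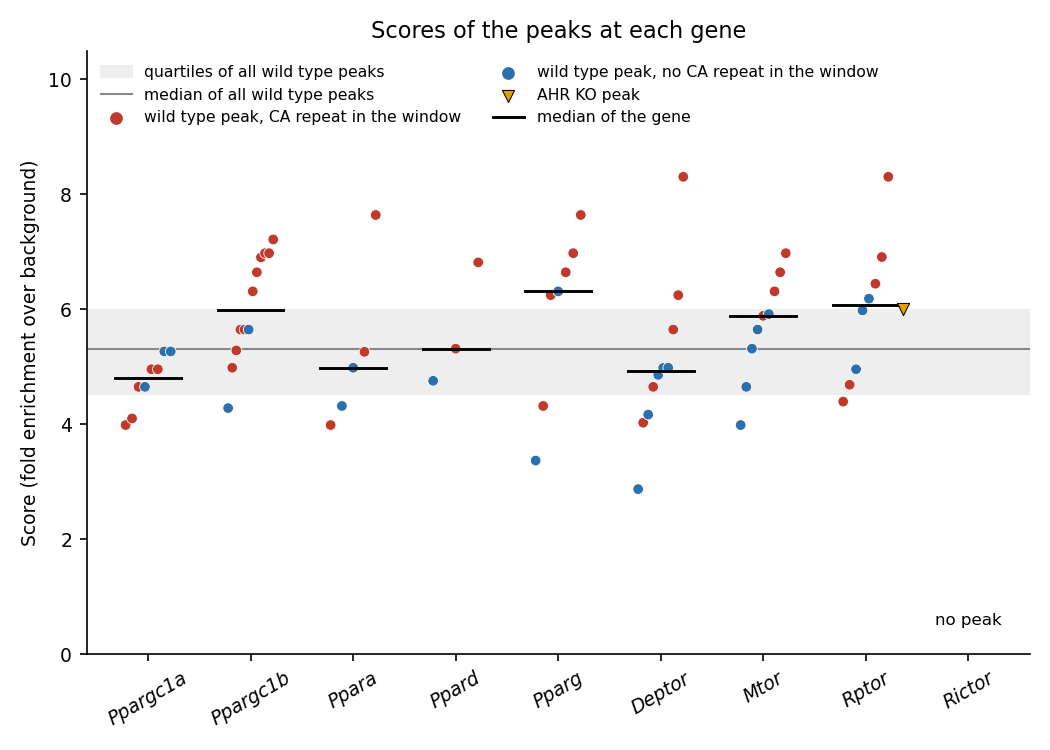
Score of each peak (y axis, fold enrichment over background) by gene (x axis). Points are wild type peaks, red with and blue without a CA repeat in the 200 bp window, the triangle is the AHR KO peak, black lines are medians per gene, and the grey band with its line gives the quartiles (4.53 and 5.98) and median (5.32) of all wild type peaks. At 7 of the 8 genes with a peak the highest point lies above the band, Ppargc1a being the exception.

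No peak lay at a promoter of these genes. Of the 62, 51 had their midpoint in an intron, 7 upstream and 4 downstream. None was in an exon or between 1 kb upstream and 100 bp downstream of a transcript start of its gene. A count of 0 in 62 leaves room for up to 4.84%. Shares by location over all wild type peaks are not given here. Most of each searched interval was gene body, so these counts do not set the genes apart. The nearest was a peak in Pparg intron 3, whose midpoint was 358 bp after the start of a retained-intron transcript. A peak in Mtor intron 32 reached 30 bp into the adjoining exon. For 20 of the 62 peaks the nearest protein-coding gene start belonged to another gene.

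**Figure D3:**
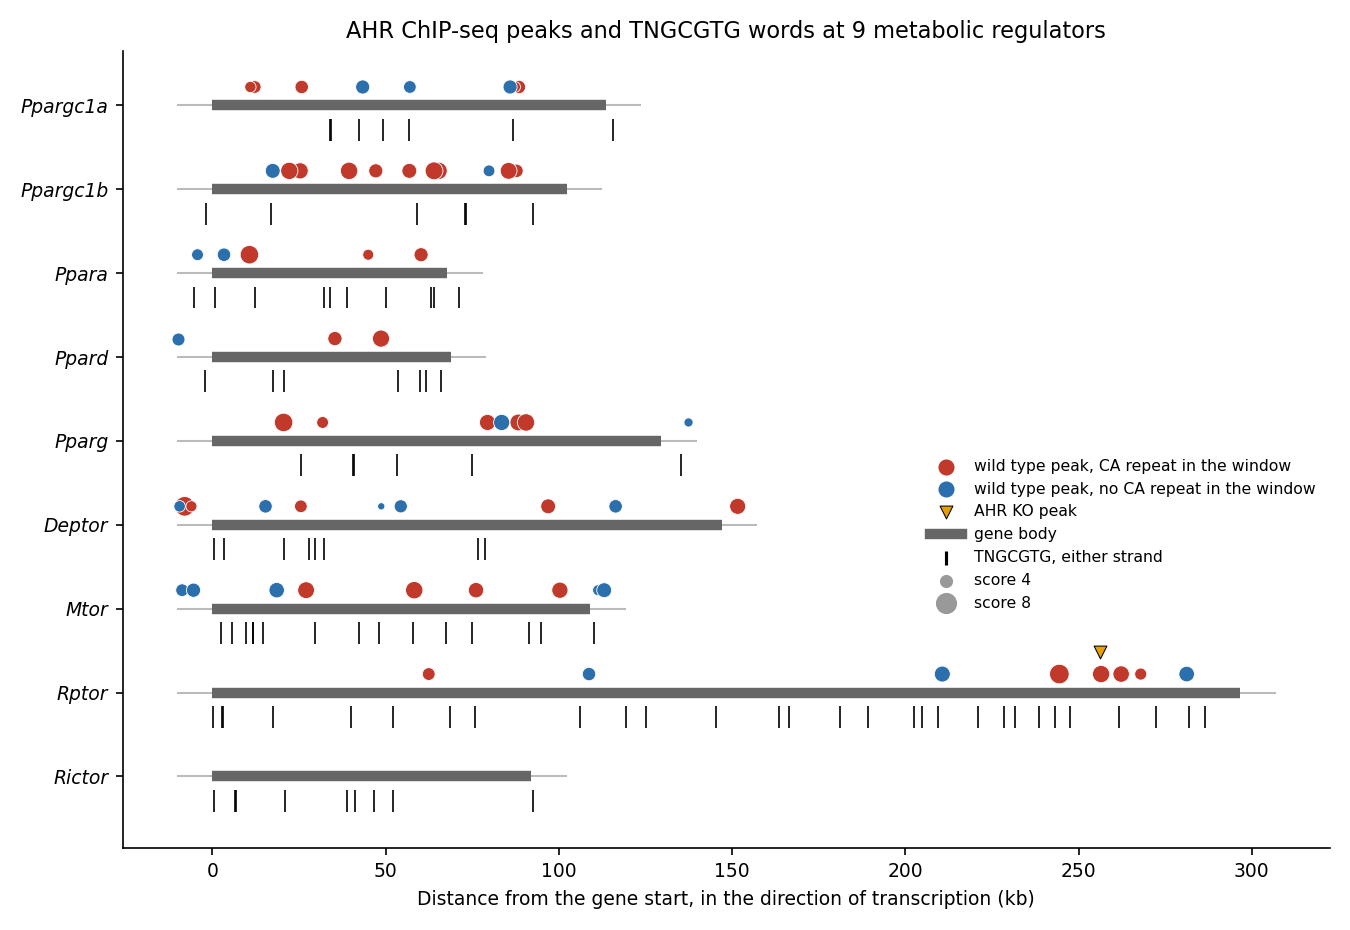
Position of every peak relative to the gene start (x axis, kb, in the direction of transcription) for each gene. Circles are wild type peaks, sized by score and red where the window is a CA repeat, the triangle is the AHR KO peak, thick bars are gene bodies, thin lines the 10 kb on either side, and ticks TNGCGTG words on either strand. None of the 97 ticks falls in a peak, and Rictor carries ticks but no circle.

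Ppargc1a encodes PGC1 alpha, the coactivator best known for its induction by fasting, cold and exercise. Its 8 peaks all lay inside the gene (chr5:51454250-51567726) and its best score, 5.27, was the lowest best score of the 8 genes with a peak. From the start they lay at 11.0 kb (score 4.10), 12.2 kb (4.65), 25.8 kb (4.96), 43.4 kb (5.27), 57 kb (4.65), 85.9 kb (5.27), 87.3 kb (3.99) and 88.5 kb (4.96). The last 3 lay within 2.8 kb of each other in intron 7. The 2 nearest the start lay 1601 bp and 2851 bp upstream of an inner transcript start, between it and the outer start of the gene. Both peaks at 5.27 were fully masked repeats without a CA run, and 37.3% of the 20-base words of the intron 2 peak recurred in the intron 7 peak. No 100-base word of the intron 7 peak was found only once in the genome, where the median word had 1389 copies.

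Ppargc1b, on chromosome 18, encodes PGC1 beta, a close relative that also raises mitochondrial gene expression. All 12 peaks were in introns, 9 in intron 1, 1 in intron 2 and 2 in intron 3. In intron 1 they lay 17.4 kb (5.65), 22.2 kb (6.90), 25.3 kb (6.31), 39.4 kb (6.98), 47.1 kb (5.29), 56.8 kb (5.65), 64 kb (7.22), 65.3 kb (6.98) and 65.7 kb (5.65) from the start. The intron 2 peak at 79.8 kb scored 4.28, and those of intron 3 at 85.5 kb and 87.8 kb scored 6.65 and 4.98. CA repeats made up 10 of the 12, and the other 2 were runs of a 6-base AGAGGC unit, 195 and 137 bp long. The median score was 5.98. The peak at 7.22 was in the top 10% of the list and had a fully masked window.

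Among the PPAR receptors, Ppara, the receptor of hepatic and intestinal fatty acid oxidation, had 5 peaks. One lay 4.3 kb upstream (score 4.32). The others were in introns at 3.3 kb (4.98), 10.7 kb (7.64), 45 kb (3.99) and 60.2 kb (5.26). The peak at 10.7 kb, printed above, ranked 7476 of 123652 with 22 fragments (13.8 to 33.3). That at 60.2 kb, in intron 6, was the only one of the 62 with the AP-1 word TGACTCA.

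Ppard, the broadly expressed PPAR, had the fewest peaks of the 8 genes, 3. One lay 9.9 kb upstream inside the neighbouring gene Def6 (4.76), and the other 2 were in intron 2 at 35.3 kb (5.32) and 48.7 kb (6.82). The peak at 48.7 kb had 9 CpG in its window, the most of the 62, where the median was 1.

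Pparg, the receptor of adipocyte differentiation that is also prominent in colon epithelium, had 7 peaks. They lay 20.5 kb (7.64), 31.8 kb (4.32), 79.4 kb (6.25), 83.5 kb (6.31), 88.3 kb (6.65) and 90.5 kb (6.98) from the start, in introns, and 137.4 kb from it (3.37), downstream of the gene. The 4 peaks from 79.4 to 90.5 kb fell within 11.3 kb and all scored above the list's upper quartile. The peak at 20.5 kb lay 2213 bp upstream of an inner transcript start.

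Deptor, which encodes the protein that binds and inhibits mTOR, had 10 peaks. Upstream of the gene were 3 of them, within 3.6 kb of each other and inside the annotated gene Gm9920, at 9.5 kb (4.17), 8.0 kb (8.31) and 6.1 kb (4.03). Upstream peaks at the other genes of the 9 together numbered 4, and the like count over all protein-coding genes is not given here. Inside the gene they lay at 15.3 kb (4.98), 25.5 kb (4.65), 48.7 kb (2.87), 54.4 kb (4.86), 96.9 kb (5.65) and 116.4 kb (4.98), and 1 lay downstream at 151.6 kb (6.25). Deptor thus held both the highest score of the 62 peaks, tied with Rptor at rank 4484, and the lowest. In the lowest, a fully masked peak in intron 3, 20.3% of 100-base words were found once.

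Mtor, the kinase itself, had 9 peaks, 5 in introns and 4 outside the gene. The intronic peaks lay at 18.5 kb (5.92), 27.0 kb (6.65), 58.2 kb (6.98), 76.1 kb (5.89) and 100.3 kb (6.31). Those outside were 8.8 kb (4.65) and 5.5 kb (5.32) upstream, and 111.3 kb (3.99) and 113.1 kb (5.65) from the start, downstream and inside Exosc10. None of the 4 outside peaks was a CA repeat by its window. The peak 8.8 kb upstream (chr4:148439649-148440039) was the only one of the 62 under 25% masked, with 20% of its window and 45.3% of its whole length masked, and 0.454% of all wild type windows were under that limit. It held no GCGTG, had 13 fragments (6.92 to 22.2), and carried a CA run of 49 bp outside the central window.

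Rptor encodes raptor, the scaffold of mTOR complex 1 that recruits its substrates. Its 8 peaks were all intronic, and 6 of them lay over 200 kb from the start, within 70.8 kb. In order they lay at 62.4 kb (4.69), 108.7 kb (4.96), 210.7 kb (6.19), 244.5 kb (8.31), 256.5 kb (6.91), 262.3 kb (6.45), 267.9 kb (4.40) and 281.2 kb (5.98). The peak at 244.5 kb carried the longest CA run of the 62, 72 bp.

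Rictor encodes the defining subunit of mTOR complex 2, which phosphorylates Akt. No wild type or AHR KO peak lay in chr15:6708379-6800401 or 10 kb to either side. The nearest wild type peaks were 18155 bp downstream (score 7.97) and 30297 bp upstream (4.40). Of its interval 29.1% was masked, against 17.7% to 32.8% at the other genes, and it held 9 TNGCGTG words. The part of sequence content in the missing peak was not tested.

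The 10 kb limit cut through a series of peaks. Just inside it was the Ppard peak 9767 bp upstream (4.76), and just outside were peaks 10121 bp upstream of Ppargc1a (5.65) and 11255 bp downstream of Ppargc1b (7.31). The Pparg peak printed last, chr6:115503671-115504182, lay 13272 bp downstream of the gene and so was not counted. It scored 7.75, its window was 0% masked, and it held TNGCGTG, a combination that none of the 62 peaks had.

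In AHR KO organoids, a peak at these genes appeared only in Rptor intron 20. It scored 5.999, ranked 1432 of 1931, and was fully masked in its window. Of its 344 bp, 316 bp were shared with a wild type peak there, which is 40.4% of the 782 bp of that wild type peak. Of the 62 wild type peaks 1 (1.61%, Wilson interval 0.285 to 8.59) thus overlapped an AHR KO peak, against 1.51% of all wild type peaks and 0.93% of those within the same range of scores. Scores of the 2 lists cannot be compared, since their depth differed: the scores gave a background of 2.01 fragments for the wild type list and of 0.287 for the KO list. At the KO background the median score of the 62 peaks would take 5.84 fragments and the highest 9.69. Pileup could be read for 17.2% of KO peaks, where the lowest was 5 and the median 8. For many of these sites a missing KO peak therefore cannot be told apart from low depth of that library.

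The full AHR word was not found in any of the 62 windows. TNGCGTG was in 0 of 62, which allows up to 4.84%, and in 2.84% of all wild type windows. It was not in the whole peaks either. The gene intervals themselves held 97 such words, 6 to 29 per gene, of which 0 lay inside a peak, which allows up to 3.09%. Genome-wide 2.69% of 181198 words lay in wild type peaks. The nearest approach was at Mtor, where a word was 204 bp from a peak.

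The core GCGTG was in 13 of 62 windows (21.0%, Wilson interval 12.7 to 32.6), against 17.7% of all wild type windows. By role it was in 5 of 20 at the PGC1 coactivators, 2 of 15 at the PPAR receptors and 6 of 27 at the mTOR genes. It was in 6 of the 39 CA repeats (15.4%, Wilson interval 7.25 to 29.7), against 21.2% over the list. Of the 23 other windows it was in 7 (30.4%, 15.6 to 50.9), against 12.9%. Most of these 7, at Ppard, Deptor and Mtor, belonged to the largest group of shared sequence, given below. The median score was 4.98 in windows with GCGTG (quartiles 4.96 and 5.98) and 5.65 in windows without it (4.65 and 6.65). CA repeats, which had the higher scores, were 6 of the 13 windows with GCGTG and 39 of all 62. Their part in this difference was not tested. Of the 821 GCGTG words in the intervals 16 (1.95%) lay inside peaks, against 4.68% genome-wide. Every search covered both strands, and each TNGCGTG also counts as a GCGTG.

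Other words were rare or absent in the 62 windows. The DR1 element of PPAR with RXR (a direct repeat of AGGTCA with 1 base between), the E-box CACGTG and the CREB element TGACGTCA were in 0 of 62, against 0.0478%, 2.25% and 0.0276% of all wild type windows. Each 0 allows up to 4.84%, above all of these shares, so 62 windows cannot show a lack of these words. TGACTCA was in 1 of 62 (1.28% of all windows, counted with TGAGTCA, its other strand) and the TEAD word GGAATG in 1, in Ppargc1b (7.24%).

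RefSeq gave 9 promoters for 7 of the genes, each 250 bases before to 50 after a start on GRCm38.p6. TNGCGTG was in 1 of the 9, that of Ppara, and in 5.07% of 32851 promoters. GCGTG was in 5 of the 9, with 3 copies at Ppara and 2 at a promoter of Pparg, and in 32.4% of all. The nearest wild type peak was 2306 bp from the Ppara promoter. For the others that distance was 5102 bp at Mtor, 9571 bp at Ppard, 9872 bp at Ppargc1a, 18803 bp at Rptor, 30049 bp at Rictor, and 18109 to 20149 bp at the 3 Pparg promoters.

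The 62 peaks were mostly repeat sequence, as was the list. CA repeats, meaning at least 3 copies of CACACA or TGTGTG in the 200 bp window, made up 39 of 62 (62.9%, Wilson interval 50.5 to 73.8), against 57.3% of all wild type windows. At least 50% of the window was masked in 51 of 62 (82.3%, 71.0 to 89.8), against 86.0%. Only the Mtor window 8.8 kb upstream was neither, as were 1.21% of all windows. Fully masked windows were 16 of 62 (25.8%, 16.6 to 37.9), against 36.5% of the list, which lies inside that interval. The median masked share was 72.25%, against 86.5%. By role, CA repeats were 15 of 20 at the PGC1 coactivators, 10 of 15 at the PPAR receptors and 14 of 27 at the mTOR genes.

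CA repeats had the higher scores. Their median was 6.25, against 4.98 for the other 23 windows, and over the whole list the medians were 5.65 and 4.65. Scores ran from 3.99 to 8.31 with a CA repeat and from 2.87 to 6.31 without one. In the 39 peaks the longest run was 25 to 72 bp with a median of 45 bp.

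**Figure D4:**
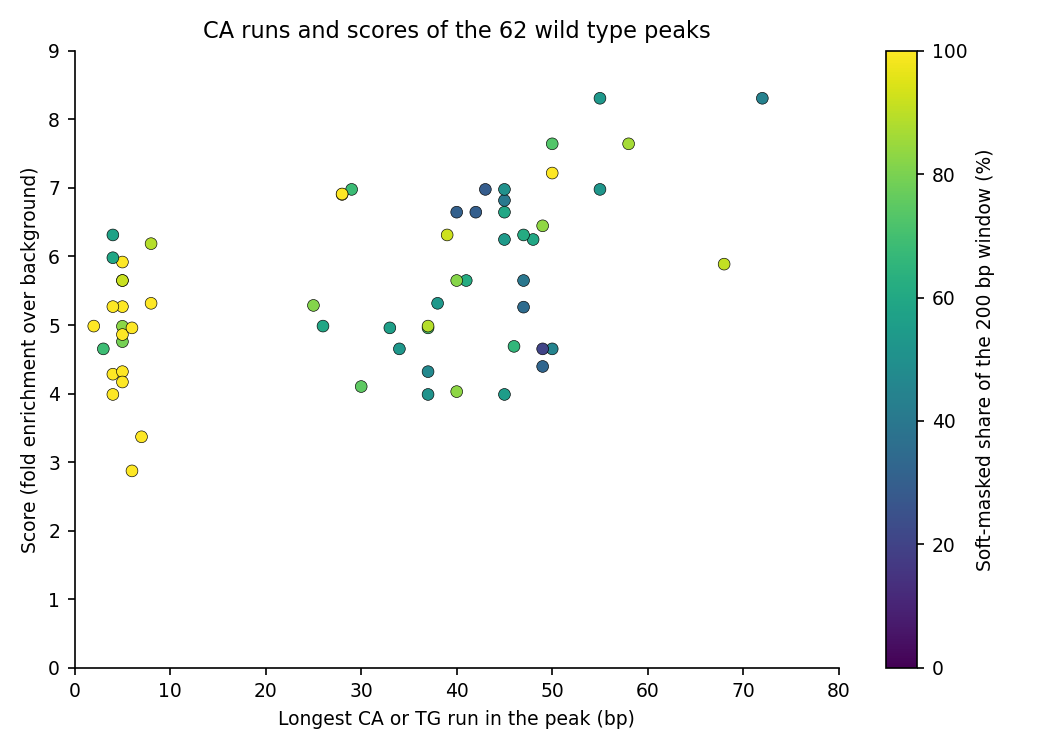
Score (y axis, fold enrichment over background) against the longest unbroken CA or TG run in the whole peak (x axis, bp) for the 62 wild type peaks, coloured by the masked share of the window (%). Peaks fall into those with runs of 25 bp or more, which score 3.99 to 8.31, and those with short runs, which score 2.87 to 6.31. Peaks with short runs are often fully masked.

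Of the 23 peaks without a CA repeat, 18 fell into 4 groups of shared sequence, linking peaks that had at least 10% of their 20-base words in common, and 5 (1 at Pparg, 1 at Mtor and 3 at Rptor) were in no group. The largest group had 8 peaks, upstream of Ppara and Ppard, in 3 introns of Deptor, and in and around Mtor (3). Its sequence, seen in capitals in the Mtor and Deptor pair above, resembles the mouse B1 short interspersed element, and no repeat annotation was used here. A group of 5 held both masked Ppargc1a peaks, the downstream peak of Pparg and peaks upstream and in intron 3 of Deptor. Of the 23, 17 had at least 1 other wild type peak with 30% or more of their words, and the Ppargc1a intron 7 peak had 6695.

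For most of the peaks, words of 100 bases, about the length of a read, were unique in the reference when only exact matches counted. Every such word was found once in 42 of the 62 peaks (67.7%), against 66.1% in 1234 peaks taken systematically, every 100th of the list. At least 90% of words were unique in 48. How reads with several matches were treated was not given in the sources used here, and its part in the masked peaks was not tested.

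The wider pathways were described by 4 lists of 121 distinct genes, chosen with earlier results of these data known. A wild type peak was present at 100 of them, read against 78.3% of protein-coding genes. Partners of PPAR and PGC1 had one at 26 of 30, their target genes at 26 of 30, mTOR subunits and upstream regulators at 29 of 37, and mTOR effectors at 20 of 25. Without a peak were, among others, the PGC1 partner Esrra, the pyruvate dehydrogenase kinase Pdk4, the liver fatty acid binding protein Fabp1, the mTOR complex 1 subunit Akt1s1, and both S6 kinases, Rps6kb1 and Rps6kb2.

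Among partners, high scores were at the coactivator gene Ncoa2 (11.96) and the deacetylase gene Sirt1 (9.41). The Sirt1 window was fully masked and held TNGCGTG. Sirt1 (1 peak) and the orphan receptor Esrrg (3 peaks), 2 of the 30 partners, also had AHR KO peaks. Among targets, high scores were at Ucp2, a mitochondrial carrier (13.5), Fabp2, the intestinal fatty acid binding protein (11.2), and Acaa2, a thiolase of fatty acid oxidation (10.97). AHR KO peaks lay at 4 of the 30 targets, Acaa2, Acaa1a, Acsl1 and the hormone gene Fgf21, 1 each. Of all protein-coding genes, 4.47% had an AHR KO peak.

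On the mTOR side the highest was Ddit4, which encodes REDD1, an inhibitor of mTOR complex 1. Its peak, chr10:59942325-59942757, scored 31.9 and ranked 11 of 123652. The peak lay 9.3 kb after the gene start, downstream of this short gene, whose interval with both flanks was 22.2 kb. Its window was a CA repeat with 11 copies of GCGTG but no TNGCGTG. Castor2, a paralogue of the arginine sensor gene Castor1 (13.6), and Stk11, the LKB1 kinase (8.99), followed, and the Stk11 peak held TNGCGTG. Among effectors, the translation repressors Eif4ebp1 and Eif4ebp2 scored 12.0 and 9.52. AHR KO peaks were at 2 of the 25 effectors, Prkca and Pdcd4. They were at 0 of the 37 subunit and upstream genes, which leaves a share of up to 8.11%. The share of protein-coding genes, 4.47%, lies below that limit. No gene of the 4 lists had a wild type window under 25% masked that held TNGCGTG.

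**Figure D5:**
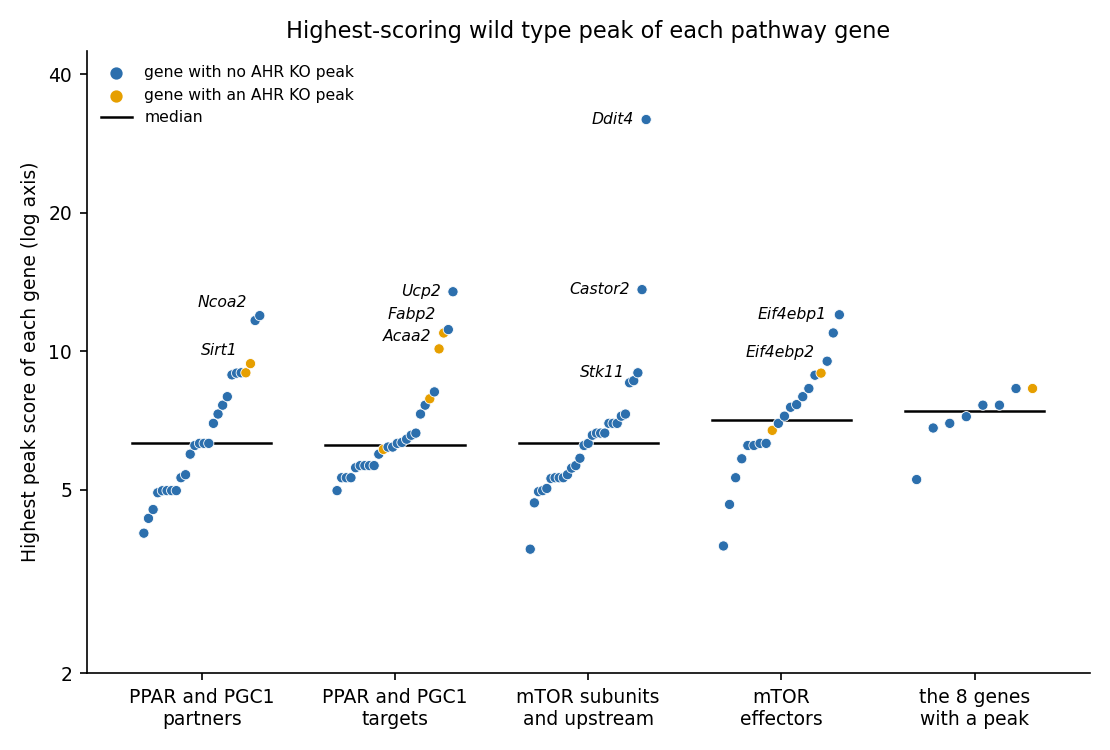
Highest peak score of each gene (y axis, fold enrichment, log scale) for the genes with a peak in the 4 pathway lists and for the 8 regulators with a peak. Points are genes, orange where an AHR KO peak lay in the same interval, bars are medians, and some of the highest of each list are named. Ddit4 at 31.9 stands apart, and the 8 regulators reach from 5.27 to 8.31.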

How the data were processed

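ChIP-seq libraries of wild type (4 AHR ChIP, 4 input) and AHR KO (1 ChIP, 1 input) organoids were aligned by the authors to mm10 with BWA 0.7.15, marked for duplicates with Picard 2.1.1 and called against input with MACS2 2.1.1, per the labels and the study's methods. The deposited score is a ratio, the fold enrichment of pileup plus 1 over background plus 1. Wild type cultures share 1 list, so read depth per library is unknown here. Starts were taken as counted from 1, since peaks at scaffold starts begin there; 1 bp of doubt remains.

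Peaks were matched to GENCODE M21 genes and GRCm38 sequence with Python 3.11.15, pandas 2.3.3 and scipy 1.17.1. Motifs, CA repeats and lower-case (masked) bases were counted in 200 bp around the midpoint, on chromosomes 1 to 19, X and Y. Fragments were read from scores that are whole multiples of the list's step (0.332 in wild type, 0.777 in the KO). Intervals (95%) and limits for 0 (3 counts) cover counting error only. Scripts were checked on simulated data. No test was made, since peaks are not replicates.

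Members and lists were chosen with earlier results of these data known. Peaks were described in full if highest at their gene, overlapping the KO list, at a promoter, with TNGCGTG or under 25% masked. Named pathway genes were the 3 highest of each list, those with a KO peak, and those with a wild type peak under 25% masked that held TNGCGTG. Ppargc1a, Mtor and Deptor peaks shown for shared words, the Pparg peak beyond the limit and the pathway genes named as having no peak were chosen after their values were seen. Some items that these rules name are not reported here.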

Additional observations from a re-analysis of the deposited data

How the results depend on the processing

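Of 38 alternatives, 24 left their value within its spread or within 1.5 times, and 14 moved it. With 50 kb on either side there were 111 wild type and 3 AHR KO peaks, and assigning peaks by nearest gene start gave 121 wild type peaks. Restricting to the top 10% by score left 5 peaks at 5 genes, all CA repeats (100%) and none (0%) over a KO peak, with 35 of 121 pathway genes. Windows under 25% masked left 1 peak at 1 gene, scoring 4.65. With a reciprocal overlap of 50%, 0% overlapped a KO peak. The core GCGTG in place of TNGCGTG gave 21.0%, and a limit of 75% masked gave 48.4%. No paired analysis was possible because the wild type list gives no value per culture, and leaving out each culture was not run for the same reason. Pileups of 11 to 24 fragments limit the scores of the 34 of 62 peaks where they could be read. The KO library's low background limits what it can show.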
